A study of Mus musculus with 9 samples.

Results

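The genes described here supply amino acids to the cell or load them onto transfer RNA. They number 36 of the 18327 genes with a named probe on the array, and were taken by name: 5 enzymes of serine, glycine and one-carbon metabolism, 5 enzymes of asparagine, cysteine and proline synthesis, 8 amino acid transporters and 18 cytosolic tRNA synthetases. A probe matched 35 of them. None matched the proline enzyme Pycr1, for which no value is given. All 35 passed the filter on dim probes, and the probe used for each was well above background on all 9 arrays, so no change below is a bound.

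The arrays came from cortical neurons of C57bl/6 mouse embryos at E15, kept for 12 days in culture. The 3 groups were neurons given 25 µM bicuculline for 6 h, neurons given 50 mM KCl for 6 h, and neurons left without treatment, with 3 one-colour Agilent arrays each, numbered 1 to 3. Bicuculline blocks GABA-A receptors, so that excitatory synapses fire unopposed, and high KCl depolarises every excitable cell in the dish. The series set out to find genes that respond to neuronal activation. The labels do not say whether the 3 arrays of a group are separate cultures, so p-values reflect array-to-array spread alone, which may be technical.

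Protein synthesis needs each amino acid in the cytosol and, for each, an aminoacyl-tRNA synthetase that joins it to its own transfer RNA. When uncharged transfer RNA builds up, or when other stress kinases act, phosphorylation of the initiation factor eIF2 slows translation in general but raises translation of the transcription factor ATF4. ATF4, often paired with a C/EBP protein, is known to drive genes for amino acid synthesis, uptake and charging, Asns among the best studied. In neurons the same genes also feed glutathione synthesis, one-carbon units and transmitter pools.

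Levels are log2 processed signal relative to the 75th percentile of the array, so a level of 0 is a probe at that percentile. Levels are compared between arrays for 1 probe, or for a sum of marker probes, and never between genes. A gene is called higher or lower where limma, fitted over all 14065 genes tested, gave a Benjamini-Hochberg adjusted p under 0.05. Errors beside a log2 change are limma's standard errors, n is 3 arrays a group throughout, and every adjusted p is limma's.

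The neuronal label was set against marker genes. All 8 neuronal markers, Tubb3, Rbfox3, Map2 and Snap25 among them, were well above background on all 9 arrays. So were all 8 astrocyte markers, 5 of 6 microglial, 6 of 7 oligodendrocyte-lineage, 4 of 6 vascular and 4 of 4 cycling-cell markers. Mog and Pecam1 reached that mark on no array, Cldn5 on at most 1 and Itgam on at most 2. In bulk cultures fewer cells of a type and less RNA per cell cannot be told apart.

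Many promoters of these genes carry the sequence that ATF4 and C/EBP proteins are known to bind together. RefSeq promoter windows of assembly GRCm38.p6, from 250 bases before to 50 after the gene's start, were found for 25 of the 36 genes. The letters TGATGNAA, searched on both strands, stood in 9 of these 25 (36%), against 2.76% of the 11215 tested genes with a window and 4.51% of all 27025 genes with one. The palindrome TGACGTCA, the full cyclic AMP response element, stood in 0 of the 25, against 3.46% of tested genes. The letters TGANTCA, bound by AP-1 proteins, stood in 2 of the 25 (8%), those of Slc7a1 and Qars, against 6.45% of tested genes. No match overlapped a match of another motif in these 25 genes. The genes without a window were Cth, Slc7a5, Slc7a3, Slc1a5, Cars, Hars, Lars, Nars, Rars, Vars and Wars. A match in each of the 8 genes that also had a probe, and both in Slc7a11, are shown 5′ to 3′ on the strand that reads TGATGNAA, with 11 bases on either side and the motif in capitals. Pycr1 was the ninth. Aars held a second match, reading TGATGCAA and 112 bases before the gene's start, which is not shown.
Asns, chr6:7693214-7693243, minus strand: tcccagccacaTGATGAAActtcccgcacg
Gars, chr6:55037960-55037989, minus strand: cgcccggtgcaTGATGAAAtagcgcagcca
Aars, chr8:111033840-111033869, minus strand: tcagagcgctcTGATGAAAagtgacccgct
Iars, chr13:49682126-49682155, minus strand: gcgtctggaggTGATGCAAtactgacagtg
Tars, chr15:11399655-11399684, plus strand: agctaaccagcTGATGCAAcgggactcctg
Yars, chr4:129189895-129189924, plus strand: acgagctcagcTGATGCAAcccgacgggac
Slc1a4, chr11:20332699-20332728, plus strand: caggctggagaTGATGCAAcgcaggaggca
Slc7a11, chr3:50443661-50443690, minus strand: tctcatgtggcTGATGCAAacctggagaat
Slc7a11, chr3:50443642-50443671, plus strand: gggctgcatgaTGATGCAAattctccaggt

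The free base N was A in the matches shown for Asns, Gars and Aars, and C in the others shown. The match of Asns lay 23 bases before the gene's start and that of Slc1a4 only 4 bases before it, while those of Yars and Iars lay 3 and 7 bases after it. In the human gene the same element of the ASNS promoter is known as the nutrient-sensing response element. The 250 bases before the mouse Asns start, at chr6:7693210-7693459 on the minus strand, are shown whole because this gene is a widely studied target of ATF4.
Asns: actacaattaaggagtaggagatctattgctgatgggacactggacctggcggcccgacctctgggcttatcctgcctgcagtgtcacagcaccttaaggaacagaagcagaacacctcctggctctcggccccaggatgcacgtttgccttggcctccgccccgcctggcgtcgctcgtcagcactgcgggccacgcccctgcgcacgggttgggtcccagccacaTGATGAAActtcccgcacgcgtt

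Genes with and without the motif had similar counts and medians, a description with no test. Of the 8 tested genes with TGATGNAA, 4 were higher, 1 lower and 3 not called under bicuculline (median log2 change 0.18), and 6 were higher, 0 lower and 2 not called under KCl, with a median of 0.25. Of the 16 tested genes whose window lacked it, 8 were higher, 1 lower and 7 not called under bicuculline, with a median of 0.12, and 12 were higher, 1 lower and 3 not called under KCl, with a median of 0.26. Of all genes tested, 17.4% were higher and 27% lower under bicuculline, and 35.8% and 36% under KCl. Eprs, the gene with the largest rise, is one of those 16. The absence of these letters from a window says nothing about the rest of the gene.

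Bicuculline raised many of the genes and lowered few. Of the 35 tested, 18 were called higher, 2 lower and 15 neither, where 17.4% of all genes tested were higher and 27% lower, or 44.4% in either direction. The median log2 change of the 35 was 0.17, against −0.03 over all genes. In 21 genes every bicuculline array stood above every control array, and in 5 every one stood below. Over all genes such separation was found upward in 22.1% and downward in 34.8%. Under KCl 24 were called higher, 6 lower and 5 neither, against 35.8% of all genes higher and 36% lower, or 71.8% in either direction, with a median of 0.24 against 0.02 over all genes. The KCl arrays stood wholly above the control arrays in 25 genes and wholly below in 7, where 37.2% and 37.6% of all genes did so.

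The number of calls moved with the scaling between arrays, to as few as 2 higher under bicuculline and 6 under KCl with normexp and the 75th percentile. The 2 treatments shared the control arrays, so their overlap is not independent. By call, 16 genes were higher under both, 8 only passed as higher under KCl, and Dars was lower under both. Slc1a5 was called higher under bicuculline and lower under KCl, though its KCl change turned to 0.17 (not called) with normexp and the 75th percentile. Tars, Qars and Slc7a1 were called in neither treatment by their brightest probe. Over 6 scalings, though, the KCl change was called lower in 4 for Qars, 3 for Slc7a1 and 2 for Tars.

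**Figure D1:**
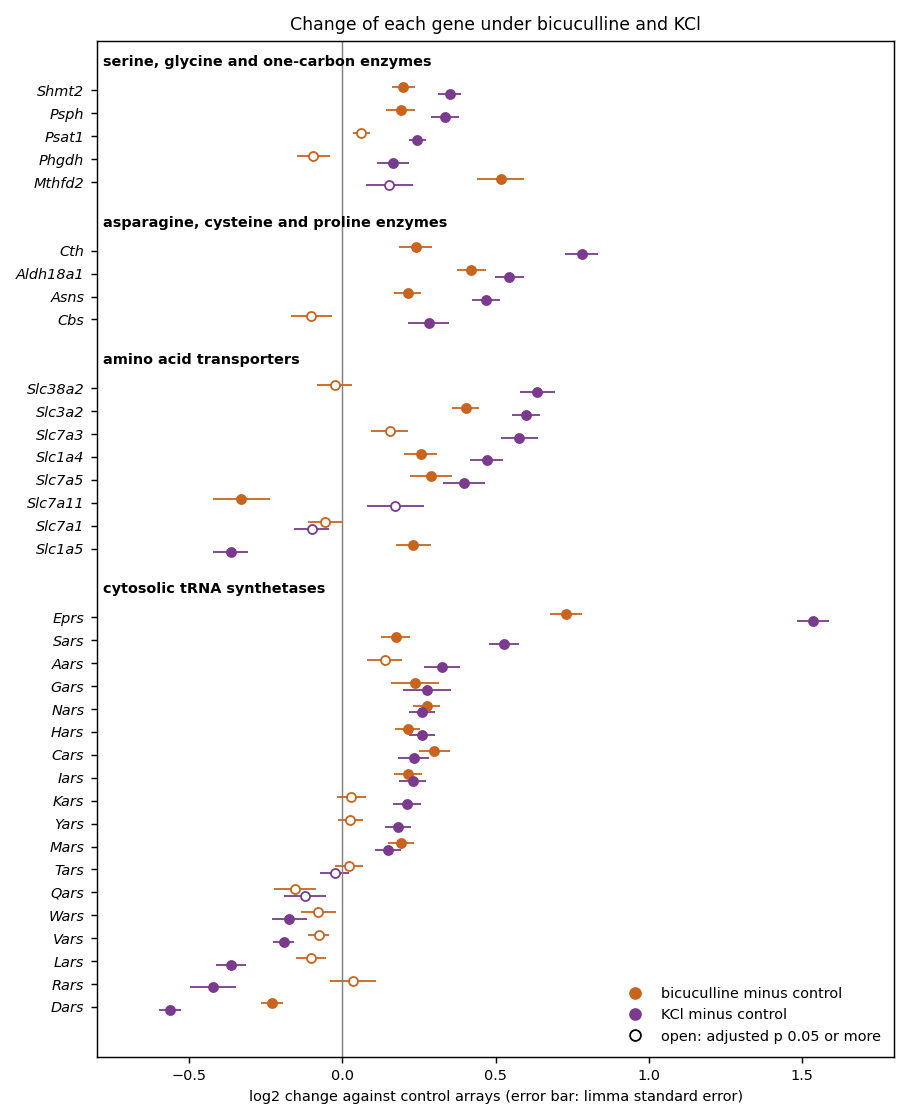
Log2 change of each of the 35 genes against the control arrays (horizontal axis), grouped by role, for bicuculline (orange) and KCl (purple), with limma standard errors and n = 3 arrays a group. Filled points passed an adjusted p of 0.05; Eprs stands furthest right in both treatments at 0.73 and 1.53, and Dars furthest left under KCl at −0.56. Among called genes the KCl signs of Phgdh, Kars, Mars, Yars, Slc1a5 and Rars turn under at least 1 other scaling.

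Among the enzymes that make serine and one-carbon units, 3 of 5 were higher under bicuculline and 4 of 5 under KCl, and none was lower in either by limma, also at an unadjusted p under 0.05. Over all genes 17.4% and 35.8% were called higher, and 27% and 36% lower. The KCl calls of this group rest on the scaling, since none of the 5 was called higher with spike-in probes or with normexp and the 75th percentile. Serine is made from a glycolytic intermediate in 3 steps, by Phgdh, Psat1 and Psph. Psat1, the transaminase, had levels of 3.46, 3.44 and 3.43 with bicuculline and 3.64, 3.62 and 3.60 with KCl, against 3.37, 3.36 and 3.40 in controls. Its KCl arrays stood above all others, with a log2 change of 0.24 ± 0.03 (adjusted p = 7.4e-05), while its change under bicuculline was 0.06 ± 0.03 (adjusted p = 0.10). Psph, the phosphatase that ends the pathway, rose by 0.19 ± 0.05 under bicuculline (adjusted p = 0.011) and by 0.33 ± 0.05 under KCl (adjusted p = 0.00029).

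Phgdh, the entry enzyme, was the least certain of the 3. It changed by −0.09 ± 0.05 under bicuculline (adjusted p = 0.19) and by 0.16 ± 0.05 under KCl (adjusted p = 0.023), a rise that fell to −0.01 with quantile scaling and −0.06 with spike-in scaling. Its 3 probes differed in call. They read −0.08, −0.09 and −0.10 under bicuculline, of which the last passed as lower, and 0.19, 0.16 and 0.07 under KCl, of which the last did not pass.

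Mitochondria split serine into glycine and a one-carbon unit through Shmt2 and pass that unit on through Mthfd2. Shmt2 had levels of 0.89, 0.83 and 0.86 with bicuculline and 0.96, 1.08 and 1.00 with KCl, against 0.67, 0.65 and 0.67 in controls. Neither treatment overlapped the controls, with log2 changes of 0.20 ± 0.04 under bicuculline (adjusted p = 0.0034) and 0.35 ± 0.04 under KCl (adjusted p = 6.3e-05). Mthfd2 had levels of 0.33, 0.23 and 0.31 with bicuculline and −0.04, −0.24 and 0.06 with KCl, against −0.31, −0.16 and −0.21 in controls. All bicuculline arrays of Mthfd2 stood above all others, while 1 KCl array lay within the control range. It rose by 0.52 ± 0.08 under bicuculline (adjusted p = 0.0011), the second largest rise of the 35 there, and changed by 0.15 ± 0.08 under KCl (adjusted p = 0.11). Without KCl replicate 2, that KCl change passed at an adjusted p of 0.010.

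All 4 measured enzymes of asparagine, cysteine and proline synthesis were higher under KCl, and 3 of 4 under bicuculline, against 35.8% and 17.4% of all genes. By array medians, spike-in probes or normexp with the 75th percentile, 3 of these 4 were higher under KCl and 1 under bicuculline. Asns makes asparagine from aspartate and glutamine. It rose by 0.21 ± 0.05 under bicuculline (adjusted p = 0.0059) and by 0.47 ± 0.05 under KCl (adjusted p = 3.3e-05), and neither treatment overlapped the controls. Over the 6 scalings Asns was called in 3 under bicuculline and 5 under KCl. Its KCl change was 0.20 with quantile scaling and 0.17 with normexp and quantile scaling. Aldh18a1 makes the first committed intermediate of proline from glutamate. Its levels were 0.79, 0.73 and 0.74 with bicuculline and 0.93, 0.87 and 0.82 with KCl, against 0.32, 0.26 and 0.41 in controls. The gap to the controls was wide in both treatments, with log2 changes of 0.42 ± 0.05 (adjusted p = 0.00022) under bicuculline and 0.54 ± 0.05 (adjusted p = 1.8e-05) under KCl.

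The transsulfuration pathway carries sulfur from homocysteine to cysteine through Cbs and then Cth, and so feeds glutathione. Cth had levels of −0.80, −0.72 and −0.77 with bicuculline and −0.13, −0.33 and −0.22 with KCl, against −1.05, −0.99 and −0.98 in controls. The 3 groups did not overlap, and KCl stood highest, at 0.78 ± 0.05 above control (adjusted p = 4.9e-06) where bicuculline stood at 0.24 ± 0.05 (adjusted p = 0.0079). The bicuculline change of Cth was called in 3 of the 6 scalings. Cbs had levels of −0.87, −1.04 and −0.85 with bicuculline and −0.66, −0.44 and −0.51 with KCl, against −0.82, −0.84 and −0.80 in controls. KCl arrays of Cbs stood above all others, by 0.28 ± 0.07 over control (adjusted p = 0.0059), a call lost with slide as a block (adjusted p = 0.082) and with spike-in scaling, at a log2 change of 0.06. Its change under bicuculline was −0.10 ± 0.07 (adjusted p = 0.27).

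**Figure D2:**
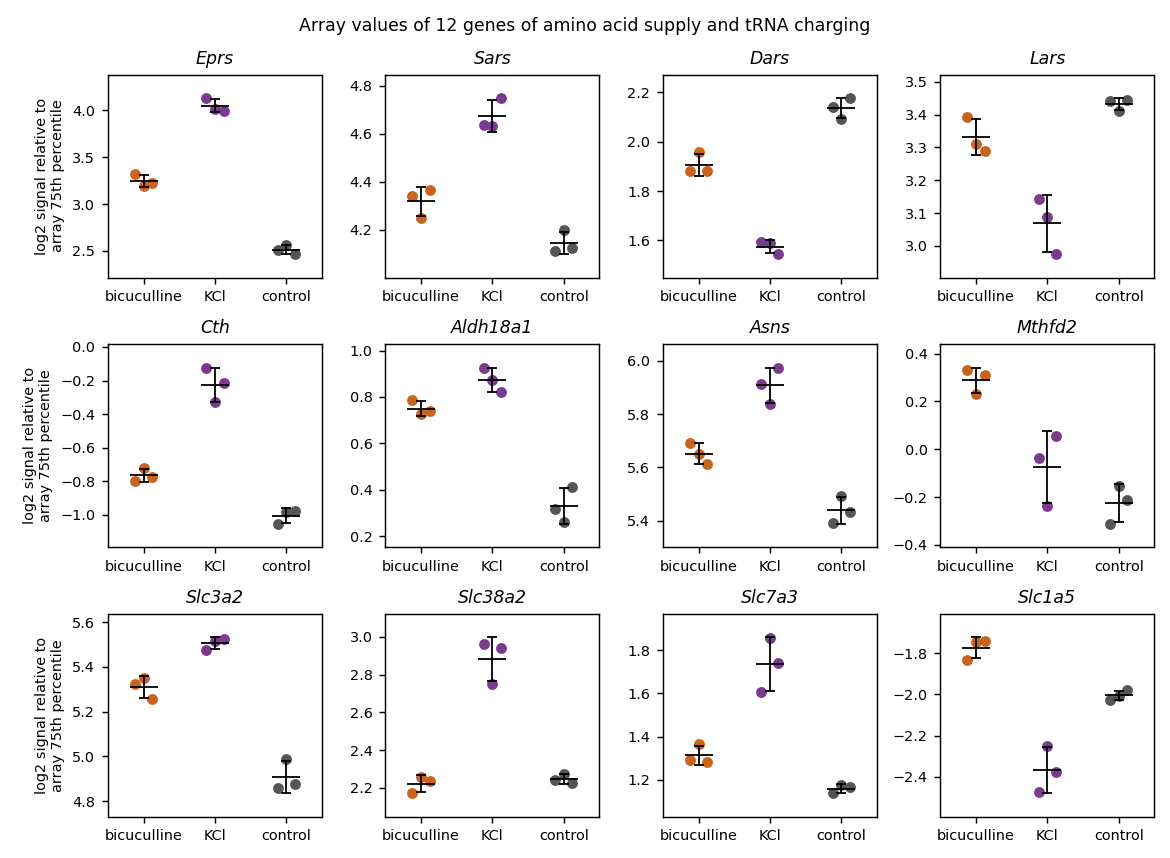
Levels of 12 of the genes on each array (points; vertical axis, log2 signal relative to the array's 75th percentile, with its own range in each panel), with group mean and SD (bars), n = 3. Groups run bicuculline, KCl and control from left to right. Eprs, Cth and Asns step up from control through bicuculline to KCl, Dars steps down, Slc38a2 is high on the KCl arrays, and Mthfd2 is high on the bicuculline arrays. The height of Asns on KCl over bicuculline arrays turned to −0.03 under normexp with quantile scaling.

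Of the 8 transporters, 4 were higher and 1 lower under bicuculline, against 17.4% and 27% of all genes. Under KCl 5 were higher and 1 lower, against 35.8% and 36% of all genes. With normexp and the 75th percentile 0 were higher under bicuculline and 2 under KCl, and 0 were lower in either. Slc7a5 is the large neutral amino acid exchanger LAT1, and Slc3a2 is the heavy chain that carries it, and other light chains, to the membrane. Slc3a2 had levels of 5.32, 5.35 and 5.25 with bicuculline and 5.48, 5.52 and 5.53 with KCl, against 4.86, 4.99 and 4.88 in controls. Both treatments stood clear of the controls, with log2 changes of 0.40 ± 0.04 (adjusted p = 0.00022) under bicuculline and 0.60 ± 0.04 (adjusted p = 7.7e-06) under KCl. The second probe of Slc3a2 gave 0.55 and 0.74.

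Slc7a5 had levels of 1.92, 1.94 and 1.75 with bicuculline and 1.95, 1.98 and 2.00 with KCl, against 1.51, 1.71 and 1.52 in controls. It too stood above the controls in both, by 0.29 ± 0.07 under bicuculline (adjusted p = 0.011) and 0.40 ± 0.07 under KCl (adjusted p = 0.0011). The partners of the exchanger therefore both passed in both treatments by the 75th percentile. Over the 6 scalings Slc3a2 was called in 5 and Slc7a5 in 3, in each treatment.

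Slc38a2 and Slc7a3 passed under KCl and not under bicuculline. Slc38a2 is the sodium-coupled transporter SNAT2, known to be induced when amino acids run short. Its levels were 2.17, 2.26 and 2.24 with bicuculline and 2.96, 2.75 and 2.94 with KCl, against 2.24, 2.27 and 2.23 in controls. Bicuculline and control arrays overlapped, with a change of −0.03 (95% confidence interval −0.16 to 0.11), while KCl stood 0.64 ± 0.06 above control (adjusted p = 2.3e-05). A second probe gave −0.01 for bicuculline and 1.02 for KCl. Slc7a3, a carrier of arginine and lysine found in neurons, had levels of 1.29, 1.36 and 1.28 with bicuculline and 1.61, 1.86 and 1.74 with KCl, against 1.14, 1.17 and 1.17 in controls. Its 3 groups did not overlap, but only the KCl change, 0.58 ± 0.06, passed (adjusted p = 5.6e-05), since bicuculline gave 0.15 ± 0.06 (adjusted p = 0.072).

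In a fit with replicate number as a block over the 6 bicuculline and control arrays, the bicuculline change of Slc7a3 passed, with an adjusted p of 0.024. The related carrier Slc7a1 had levels of 1.86, 1.79 and 1.81 with bicuculline and 1.86, 1.65 and 1.81 with KCl, against 1.87, 1.92 and 1.84 in controls. Its groups lay close together, and KCl gave −0.10 ± 0.06 (adjusted p = 0.14). A second probe of Slc7a1 gave −0.03 under bicuculline and 0.70 ± 0.27 under KCl (adjusted p = 0.046), so the 2 probes differed in call. This second probe also differed by slide. On slide 1, which held no KCl array, bicuculline read −4.65 and −4.63 and controls −4.48 and −4.55. On slide 2 bicuculline replicate 3 read −3.74 and control replicate 3 −3.89, against −3.43 and −3.64 for KCl replicates 1 and 2.

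Slc7a11, the light chain of the cystine-glutamate exchanger, was the transporter called lower under bicuculline. Its levels were −3.55, −3.20 and −3.18 with bicuculline and −2.84, −2.81 and −2.77 with KCl, against −2.94, −3.01 and −2.99 in controls. All bicuculline arrays stood below, and all KCl arrays above, the controls. The change was −0.33 ± 0.09 under bicuculline (adjusted p = 0.021) and 0.17 ± 0.09 under KCl (adjusted p = 0.13). The bicuculline call was lost without control replicate 1 (adjusted p = 0.067), without control replicate 3 (adjusted p = 0.051) and with the replicate block in 6 arrays (adjusted p = 0.066). The other 2 probes of Slc7a11 gave 0.10 and −0.28 under bicuculline, the second of them called, and 0.96 and 0.15 under KCl, both called higher.

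The neutral amino acid exchangers Slc1a4 and Slc1a5 were both called higher under bicuculline and had opposite calls under KCl. Slc1a4 rose by 0.26 ± 0.05 under bicuculline (adjusted p = 0.0061) and 0.47 ± 0.05 under KCl (adjusted p = 0.00010), but its second probe gave 0.18, called, and −0.01, not called. Slc1a5 had levels of −1.83, −1.75 and −1.74 with bicuculline and −2.47, −2.25 and −2.38 with KCl, against −2.02, −2.01 and −1.98 in controls. Its bicuculline arrays stood above the controls by 0.23 ± 0.06 (adjusted p = 0.012). Its KCl arrays stood below them, at −0.36 ± 0.06 (adjusted p = 0.00061), with the turn of sign under normexp given above.

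Of the 18 cytosolic synthetases, 8 were higher and 1 lower under bicuculline (median log2 change 0.09), against 17.4% and 27% of all genes. Under KCl 11 were higher and 5 lower, against 35.8% and 36% of all genes. The KCl median of the 18 was 0.20, and became −0.03 under spike-in scaling. These counts moved with the scaling: under KCl to 2 higher and 6 lower by array medians, 2 and 7 by spike-in probes, and 1 and 2 with normexp and the 75th percentile. Those higher under bicuculline became 4, 1 and 1 in the same 3 settings. Eprs, which joins glutamate and proline to their transfer RNAs in 1 protein, changed most of all 35 genes in both treatments. Its levels were 3.32, 3.19 and 3.23 with bicuculline and 4.13, 4.02 and 4.00 with KCl, against 2.51, 2.57 and 2.47 in controls. The 3 groups were far apart, at 1.66-fold over control under bicuculline (log2 0.73 ± 0.05, adjusted p = 1.9e-05) and 2.90-fold under KCl (log2 1.53 ± 0.05, adjusted p = 1.2e-07). Its 4 probes gave log2 changes between 0.73 and 0.79 under bicuculline and between 1.48 and 1.60 under KCl. Within slide 1 the bicuculline rise was 0.71 and within slide 2 it was 0.76, and within slide 2 the KCl rise was 1.61.

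Sars, the serine enzyme, rose by 0.17 ± 0.05 under bicuculline (adjusted p = 0.019) and by 0.53 ± 0.05 under KCl (adjusted p = 2.4e-05). On the arrays Sars read 4.34, 4.25 and 4.37 with bicuculline and 4.64, 4.63 and 4.75 with KCl, against 4.11, 4.20 and 4.12 in controls, with no overlap between groups. Its bicuculline call was lost without any one of bicuculline replicates 1 and 3 and control replicates 1 and 3, with adjusted p between 0.060 and 0.069. Cars, the cysteine enzyme, read 3.18, 3.00 and 3.04 with bicuculline and 3.03, 2.96 and 3.02 with KCl, against 2.74, 2.82 and 2.76 in controls. It stood above the controls in both, by 0.30 ± 0.05 (adjusted p = 0.0019) under bicuculline and 0.23 ± 0.05 (adjusted p = 0.0035) under KCl. Its other probes gave 0.29 and 0.27 under bicuculline, and 0.13 and 0.06 under KCl, of which the 0.06 did not pass. With spike-in scaling the KCl change of Cars was 0.0065 and was not called.

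Nars, the asparagine enzyme, read 2.42, 2.52 and 2.49 with bicuculline and 2.47, 2.40 and 2.52 with KCl, against 2.17, 2.23 and 2.20 in controls. Bicuculline and KCl arrays overlapped each other and neither overlapped the controls, with rises of 0.27 ± 0.04 (adjusted p = 0.0013) and 0.26 ± 0.04 (adjusted p = 0.00081). Gars, Hars, Iars and Mars, for glycine, histidine, isoleucine and methionine, were also higher in both, by 0.19 to 0.24 under bicuculline and 0.15 to 0.28 under KCl. With spike-in scaling the KCl changes of Nars, Gars, Hars and Iars were 0.034, 0.051, 0.034 and 0.0039, and none was called. The KCl rise of Mars turned to −0.08 under spike-in scaling and its second probe, at 0.08, did not pass under bicuculline. The bicuculline call of Gars was lost without any one of the 6 arrays compared, with adjusted p between 0.054 and 0.12. Aars, Kars and Yars, for alanine, lysine and tyrosine, passed as higher under KCl and not under bicuculline, by 0.32, 0.21 and 0.18, of which Kars and Yars turned to −0.02 and −0.04 under spike-in scaling.

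A smaller group of synthetases was called lower. They made up 27.8% of the 18 under KCl and 5.56% under bicuculline, below the 36% and 27% of all genes. Dars, the aspartate enzyme, read 1.88, 1.96 and 1.88 with bicuculline and 1.59, 1.59 and 1.54 with KCl, against 2.14, 2.09 and 2.17 in controls. The 3 groups of Dars did not overlap, and it fell by 0.23 on the log2 scale under bicuculline (SE 0.04, adjusted p = 0.0014) and by 0.56 under KCl (SE 0.04, adjusted p = 3.4e-06). Lars, the leucine enzyme, read 3.39, 3.31 and 3.29 with bicuculline and 3.14, 3.09 and 2.97 with KCl, against 3.44, 3.41 and 3.44 in controls. Its KCl arrays lay below all others, at −0.36 ± 0.05 (adjusted p = 0.00025), while bicuculline gave −0.10 ± 0.05 (adjusted p = 0.13). The other probes of Lars gave −0.38 and −0.49 under KCl, and −0.05 and −0.24 under bicuculline, the last of them called lower.

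Rars, for arginine, changed by −0.42 ± 0.07 under KCl (adjusted p = 0.0012), a value that became 0.01 under normexp with the 75th percentile, and by 0.03 ± 0.07 under bicuculline (adjusted p = 0.76). Vars and Wars, for valine and tryptophan, passed as lower under KCl, at −0.19 ± 0.03 and −0.17 ± 0.06. The call of Wars was lost without KCl replicate 3, control replicate 1 or control replicate 3, with adjusted p between 0.056 and 0.080. Tars, for threonine, read 2.89, 2.93 and 2.86 with bicuculline and 2.84, 2.78 and 2.93 with KCl, against 2.82, 2.92 and 2.88 in controls. Its groups overlapped, at −0.03 under KCl (95% confidence interval −0.13 to 0.08), though a second probe gave −0.18 and passed (adjusted p = 0.0035). Qars, for glutamine, gave −0.15 ± 0.07 under bicuculline (adjusted p = 0.11) and −0.12 ± 0.07 under KCl (adjusted p = 0.14). That KCl change was called lower in 4 of the 6 scalings.

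In animal cells 8 of these synthetases sit in 1 large complex held by the scaffold proteins Aimp1, Aimp2 and Eef1e1, a grouping applied after the values were known. Its members were called in both directions. Under KCl 4 of the 8 (Eprs, Iars, Kars and Mars) were higher and 3 (Dars, Lars and Rars) lower, and under bicuculline 3 were higher and 1 lower. Of the 10 synthetases outside it, 7 were higher and 2 lower under KCl, and 5 were higher and 0 lower under bicuculline. Over all genes 35.8% were higher and 36% lower under KCl, and 17.4% and 27% under bicuculline. The turns of sign of Kars, Mars and Rars under other scalings are those given above.

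The scaffold genes were themselves called lower under bicuculline. Aimp1, Aimp2 and Eef1e1, with Farsa and Farsb, which form the phenylalanine enzyme, were all 5 lower under bicuculline and 4 of 5 lower under KCl. Over all genes 27% and 36% were lower. The bicuculline count fell to 1 with spike-in scaling and 0 with normexp and the 75th percentile. The highest KCl change of the 5 was −0.003. Aimp2 changed by −0.42 ± 0.06 under bicuculline (adjusted p = 0.0012) and −0.51 ± 0.06 under KCl (adjusted p = 0.00016), a KCl change that was −0.05 with normexp and the 75th percentile, and Eef1e1 by −0.14 ± 0.03 (adjusted p = 0.0055) and −0.53 ± 0.03 (adjusted p = 1.7e-06). The list's median was −0.14 under bicuculline and −0.40 under KCl, and stayed below 0 in all 6 scalings.

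Mitochondria charge their own transfer RNAs with a separate set of nuclear-encoded enzymes. Of 17 tested, 2 were higher and 9 lower under bicuculline, against 17.4% and 27% of all genes. Under KCl 1 was higher and 13 lower, against 35.8% and 36% of all genes. With normexp and the 75th percentile the counts lower were 0 (4 at an unadjusted p under 0.05) and 6. Their median log2 change was −0.21 under bicuculline and −0.55 under KCl, and the KCl median lay between −0.78 and −0.23 over the 6 scalings. Rars2 changed by −1.43 ± 0.04 under KCl (adjusted p = 5.7e-08) and Pars2 by −1.12 ± 0.04 (adjusted p = 1.6e-07). Mars2, the methionine enzyme of mitochondria, was the only one of the 17 called higher under KCl, at 0.59 ± 0.04 (adjusted p = 7.6e-06). For methionine both the cytosolic and the mitochondrial enzyme were thus called higher under KCl, with the turn of Mars given above.

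Regulators and targets of ATF4 that have no part in amino acid supply were largely higher. Of 18 tested, 15 were higher and 1 lower under bicuculline, with a median of 0.36, and 13 were higher and 2 lower under KCl, with a median of 0.50. With normexp and the 75th percentile 7 and 10 were higher. Atf4 itself had levels of 1.33, 1.44 and 1.39 with bicuculline and 1.92, 1.71 and 1.89 with KCl, against 0.96, 1.07 and 1.04 in controls. The 3 groups of Atf4 did not overlap, with rises of 0.36 ± 0.06 (adjusted p = 0.0020) and 0.81 ± 0.06 (adjusted p = 8.2e-06). Arrays measure its RNA, not the translation through which ATF4 is mainly controlled.

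Stc2, a secreted glycoprotein, rose most in the list, by 1.00 ± 0.05 under bicuculline (adjusted p = 3.9e-06) and 2.07 ± 0.05 under KCl (adjusted p = 3.7e-08). Cebpb, a partner of ATF4, rose by 0.88 ± 0.07 (adjusted p = 2.5e-05) and 1.17 ± 0.07 (adjusted p = 1.6e-06). Sesn2, a leucine-sensing inhibitor of mTORC1, rose by 0.57 ± 0.07 (adjusted p = 0.00047) and 1.03 ± 0.07 (adjusted p = 5.9e-06). Trib3 rose by 0.54 and 0.41, and Chac1, which breaks down glutathione, by 0.22 and 0.52. Ddit3, which encodes the stress factor CHOP, rose by 0.36 ± 0.05 under bicuculline (adjusted p = 0.0010) but gave 0.01 ± 0.05 under KCl (adjusted p = 0.93).

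**Figure D3:**
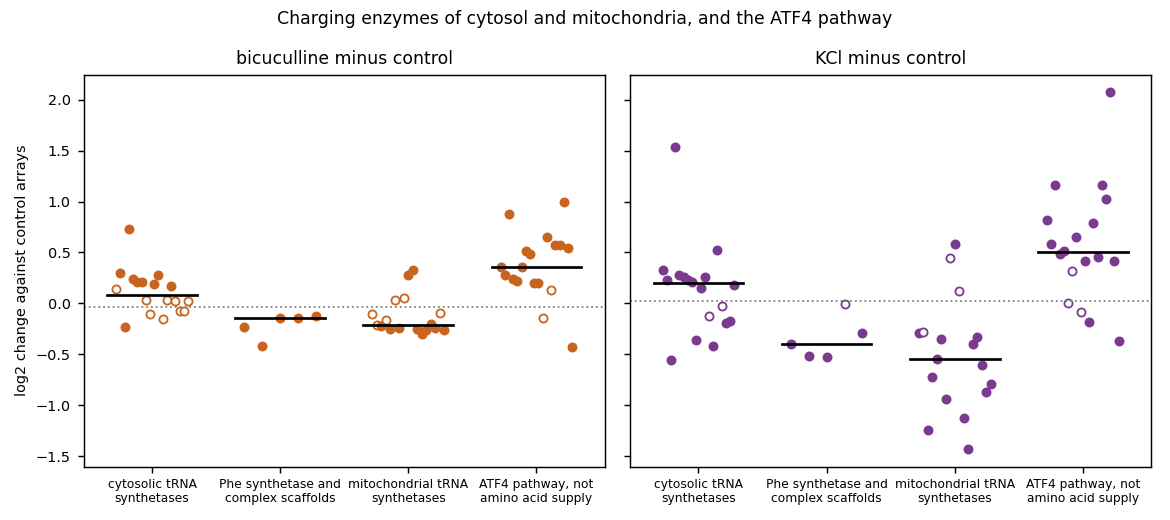
Log2 change against control (vertical axis) of each gene in 4 lists under bicuculline (left) and KCl (right), n = 3 arrays a group. Filled points passed an adjusted p of 0.05, black bars are list medians and the dotted line is the median of all genes. Under KCl the mitochondrial synthetases have a median of −0.55 and the cytosolic ones 0.20, which became −0.03 under spike-in scaling, with Eprs alone above 1 among the cytosolic enzymes.

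Other amino acid transporters and enzymes were called in both directions. Of 20 other transporters 2 were higher and 7 lower under bicuculline, and 7 were higher and 10 lower under KCl. As shares higher and lower these were 10% and 35% under bicuculline, against 17.4% and 27% of all genes, and 35% and 50% under KCl, against 35.8% and 36%. Slc38a9, the lysosomal arginine sensor, changed by −1.10 ± 0.03 under KCl (adjusted p = 7.4e-08). Of 27 other enzymes of amino acid, folate and glutathione metabolism, 4 were higher and 7 lower under bicuculline, and 5 were higher and 6 lower under KCl. Those shares, 14.8% and 25.9%, and 18.5% and 22.2%, were near the all-gene shares under bicuculline and below them under KCl.

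KCl and bicuculline arrays were also set against each other. Of the 35 genes, 18 were higher with KCl, 6 were lower and 11 were not called, where 36.1% of all genes tested were higher and 28.8% lower, or 64.9% in either direction. The median difference of the 35 was 0.12, against 0.07 over all genes. The KCl arrays stood wholly above the bicuculline arrays in 19 genes and wholly below in 6, where 39.6% and 30.5% of all genes did so. Of the 18 calls upward, 8 kept their sign in all 6 scalings: Eprs, Slc38a2, Cth, Slc7a11, Slc7a3, Cbs, Sars and Phgdh. The other 10 turned in at least 1 scaling. All 6 downward calls (Slc1a5, Rars, Mthfd2, Dars, Lars and Vars) kept their sign. With normexp and the 75th percentile, though, Slc1a5 and Rars were only −0.03 and −0.02. Far fewer were called in all 6 scalings, namely 3 of the 18 upward (Eprs, Slc38a2 and Cth) and 3 of the 6 downward (Mthfd2, Dars and Lars).

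Slc38a2 showed the second largest of these differences, 0.66 ± 0.06 (adjusted p = 3.2e-05), after Eprs at 0.81 ± 0.05 (adjusted p = 6.6e-06). Cth differed by 0.54 ± 0.05 (adjusted p = 6.6e-05) and Slc7a11 by 0.50 ± 0.09 (adjusted p = 0.0019), and all 3 probes of Slc7a11 were called higher here, at 0.87, 0.50 and 0.43. In the other direction Slc1a5 differed by −0.59 ± 0.06 (adjusted p = 5.6e-05), Rars by −0.46 ± 0.07 (adjusted p = 0.0010) and Mthfd2 by −0.36 ± 0.08 (adjusted p = 0.0040). Of the synthetases called higher under both treatments, Eprs and Sars were also higher with KCl than with bicuculline, Sars by 0.35 ± 0.05 (adjusted p = 0.00037). Nars, Iars, Cars, Gars, Hars and Mars were not called in this comparison, with 95% confidence intervals of −0.11 to 0.08 for Nars, −0.09 to 0.12 for Iars and −0.18 to 0.05 for Cars. Iars was called lower with quantile scaling, at −0.13. For Cars the other probes gave −0.15 and −0.20, both called lower. The second probe of Slc1a4 gave −0.19, against 0.21 by the brightest. That of Slc7a1 gave 0.73 (adjusted p = 0.044), with the difference by slide given above. Second probes of Tars and Vars gave −0.12, called lower, and −0.09, not called.

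**Figure D4:**
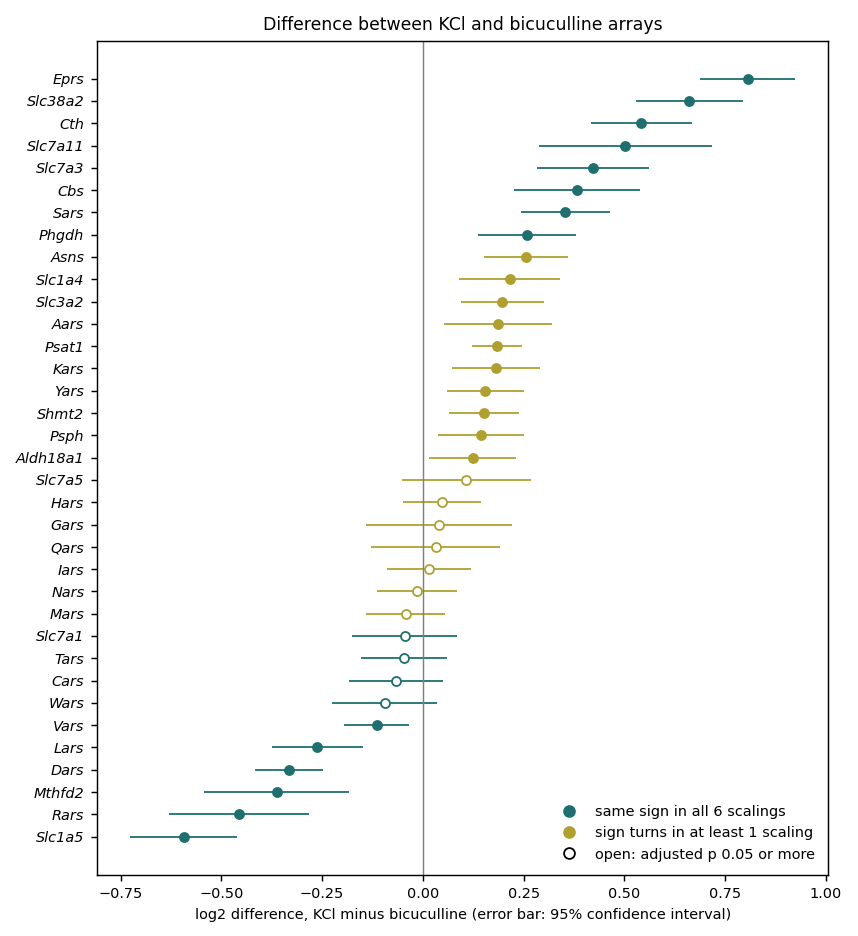
Log2 difference between KCl and bicuculline arrays (horizontal axis) for each of the 35 genes, with 95% confidence intervals, n = 3 arrays a group. Teal genes kept their sign in all 6 scalings and yellow ones did not; filled points passed an adjusted p of 0.05. Eprs at 0.81 and Slc38a2 at 0.66 head the list and Slc1a5 at −0.59 ends it.

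Scaled by the 75th percentile, summed markers of astrocytes, vascular cells and the oligodendrocyte lineage stood highest on the KCl arrays. The summed level of the 8 astrocyte markers, on a linear scale where 1 is the array's 75th percentile, was 152 to 154 on the bicuculline arrays and 172 to 181 on the KCl arrays, against 151 to 164 on the control arrays. Of these 8, 4 were called higher and 1 lower under KCl, where 35.8% of all genes were higher and 36% lower. The 4 measured vascular markers summed to 12.7 to 13.1 with bicuculline and 15.5 to 15.9 with KCl, against 12.6 to 12.8 in controls, and the 6 oligodendrocyte-lineage markers to 25.5 to 27.2 and 29.6 to 30.5, against 27.2 to 28.2. Under KCl 3 vascular markers were called higher and 1 lower, and 4 oligodendrocyte-lineage markers higher and 2 lower. The brightest probes weigh most in a sum, so it hides markers that moved the other way. The 8 neuronal markers summed to 132 to 141 with bicuculline and 143 to 150 with KCl, against 138 to 147 in controls. The 5 microglial markers summed to 1.47 to 2.24 and 1.93 to 2.90, against 1.81 to 1.91, and the 4 cycling-cell markers to 5.50 to 5.91 and 5.15 to 5.67, against 5.90 to 6.82. These sums were not taken under the other scalings. By spike-in probes the median KCl change of all genes was −0.20, against 0.02 by the 75th percentile. The part of these cells in the changes above was not tested.

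How arrays are scaled sets the zero line of the KCl comparisons. The median of all genes against control was 0.02 by the 75th percentile, −0.20 by spike-in probes and −0.14 by array medians. Relative to that median the 35 genes stood 0.07 to 0.22 higher in the 6 scalings, the lowest with normexp and the 75th percentile. Against bicuculline they stood between −0.12 and 0.05. Under bicuculline against control they stood 0.18 to 0.21 higher than the median of all genes, and the 18 calls upward and 2 downward kept their sign in all 6 scalings. These 20 calls also kept their sign within slide 1 and within slide 2, and all 30 KCl calls did so within slide 2, the only slide with both KCl and control arrays. In every one of these called genes the arrays of the 2 groups did not overlap. The sign within a slide therefore could not differ, and it is no separate check. Of the KCl calls, 20 of 24 upward and 4 of 6 downward kept their sign in all 6 scalings. Eprs and Aldh18a1 were called in all 6 under bicuculline. Under KCl Eprs, Cth, Aldh18a1, Slc38a2 and Slc7a3 were called higher in all 6, and Dars and Lars lower.

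**Figure D5:**
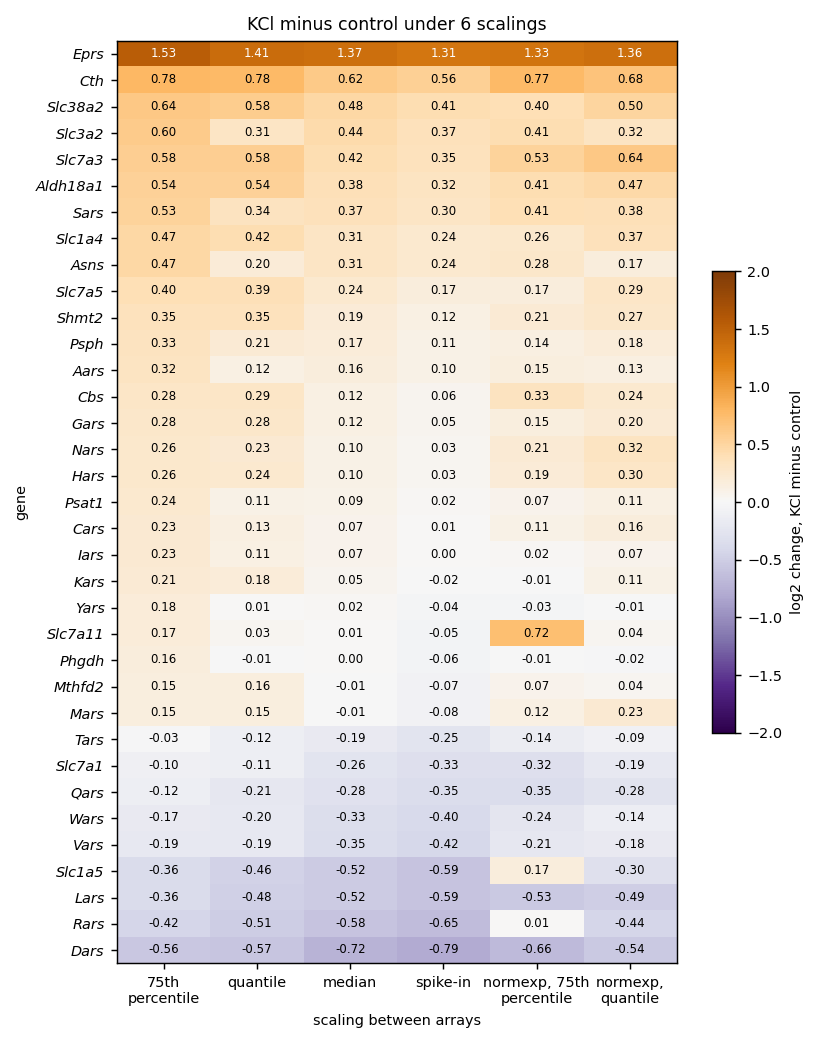
Log2 change, KCl minus control, of each gene (rows) under 6 scalings between arrays (columns), coloured and printed, n = 3 arrays a group. Eprs lies between 1.31 and 1.53 and Dars between −0.79 and −0.54 in every column, while Phgdh, Kars, Mars, Yars, Slc1a5 and Rars, and the uncalled Mthfd2 and Slc7a11, change sign.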

How the data were processed

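Cultures of 3 groups were profiled on 9 arrays, and samples were grouped by their labels alone. The authors deposited processed signal intensity, made by Agilent Feature Extraction 10.7.3.1 per the file headers and 10.5.1.1 per the submitters' processing notes, with background subtracted and no scaling between arrays. The deposited series values equalled this intensity on all 45018 features of each array. Per the labels' protocols, 100 ng of RNA was labelled with cyanine 3.

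Each log2 intensity was taken relative to its array's 75th percentile over 43379 non-control spots. That percentile was 1586 to 3087 on the linear scale, 65.0% to 75.9% of spots were well above background, and 0 were saturated. Of 41174 probes, 26888 matched a symbol in a RefSeq table of GRCm38.p6. A probe stayed in if some group had it well above background on all its arrays and each group had it measured on 2 (20994 probes). The brightest stood for its gene. limma 3.58.1 in R 4.3.3 fitted all 9 arrays with group as the only term, two-sided, with Benjamini-Hochberg adjustment in each of 3 comparisons. The fit had 6 residual degrees of freedom, the median SD between replicates was 0.064 (log2), and precision is limited by the number of arrays. The fit was tested on simulated data for KCl against control over 14065 genes, with 50 genes changed at each size. It recovered 30%, 74%, 92% and 94% of changes of 0.25, 0.5, 1 and 2 (log2), and 3.97% of its calls were false. The simulated noise was independent between arrays, with no slide effect. Few genes were changed there, where 71.8% were called in the real KCl comparison, so recovery in the data may differ.

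Slide 1 held bicuculline and control replicates 1 and 2, slide 2 bicuculline and control replicate 3 with KCl replicates 1 and 2, and slide 3 KCl replicate 3. Deviations of same-numbered bicuculline and control arrays, which share a slide, correlated at 0.40, 0.26 and 0.74 over 14028 genes, and same-slide pairs of different number at 0.33 and 0.16, so number and slide cannot be told apart. Every same-numbered pair lay above 0.1, but so did those of different number, so pairing by number is not shown. The main fit had no block, and blocks by number and by slide were alternatives. Numbers shared with KCl arrays correlated below 0 and pair nothing.

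Genes with values on every array are the 8 with the largest change in each treatment among those that passed and did not overlap, and the largest and smallest change of each role; Asns, Slc1a5, Lars and others were added after their values were seen. The members and lists were chosen with earlier results of these data known. Alternatives were 5 other scalings or background corrections, no filter, the mean of probes, slide and replicate blocks, a trended prior, outlier spots kept, and leaving out each array. Some items are not reported here.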

Additional observations from a re-analysis of the deposited data

How the results depend on the processing

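The counts of genes called depend mainly on the scaling, and the fit without the dim-probe filter, with the mean of probes, with a trended prior or with outlier spots kept gave each count within 1.5 times. For bicuculline against control, where 18 were higher and 2 lower, median scaling gave 8 higher, spike-in scaling 4 and normexp with the 75th percentile 2, and the last 2 settings gave 0 lower (2 and 0 in limma at an unadjusted p under 0.05). For KCl against control, where 24 were higher and 6 lower, these settings gave 11, 9 and 6 higher, and normexp with the 75th percentile 2 lower. For KCl against bicuculline, where 18 were higher and 6 lower, quantile scaling gave 10 higher, median scaling 7, spike-in scaling 3, normexp with the 75th percentile 4 and normexp with quantile scaling 7. Spike-in scaling there gave 11 lower and normexp with the 75th percentile 3 lower. The cause was not tested. Leaving out 1 array gave 16 to 19 higher and 1 to 3 lower for bicuculline, the 1 being without control replicate 1 or 3, which lost Slc7a11. It gave 23 to 25 higher and 5 to 6 lower for KCl, and 15 to 18 higher and 5 to 6 lower for KCl against bicuculline.

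With replicate number as a block there were 19 higher and 2 lower for bicuculline, 24 and 6 for KCl, and 17 and 6 for KCl against bicuculline. The block within the 6 bicuculline and control arrays, added after seeing the data, gave 18 higher and 2 lower, with Slc7a11 (adjusted p = 0.066) and Sars (0.057) lost and Slc7a3 (0.024) and Qars (0.031) gained. With the replicate block over all 9 arrays Slc7a3 was gained for bicuculline (0.048) and Aldh18a1 lost for KCl against bicuculline (0.065), and it changed no other call. Slide as a block gave 18 and 2, 20 and 5, and 13 and 6. It lost Phgdh, Cbs, Gars, Mars and Wars for KCl, and Shmt2, Aldh18a1, Aars, Kars, Vars and Yars for KCl against bicuculline, where Mars was gained as lower.

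The share of calls that were upward, over all genes, moved with the scaling. For bicuculline it was 39.2%, and 49.8% with spike-in scaling and 58.7% under normexp and percentile scaling. For KCl it was 49.9%, and 25.9% with spike-in and 31.8% with median scaling. For KCl against bicuculline it was 55.6%, and 19.7% with spike-in, 34.0% with median, 43.0% with quantile, 45.2% under normexp and percentile scaling and 43.7% under normexp and quantile scaling. Counts of all genes called higher were 2444 for bicuculline (483 with normexp and the 75th percentile, 1247 with spike-in, 1577 with median scaling), 5038 for KCl (1826, 2201 and 2943) and 5076 for KCl against bicuculline (1098, 1284 and 2502). Counts called lower were 3798, 5063 and 4047, and 340, 2308 and 1331 with normexp and the 75th percentile, and 1255 for bicuculline with spike-in scaling. In the other lists, mitochondrial synthetases lower under bicuculline numbered 9 at first, 0 by spike-in probes and 0 with normexp and percentile scaling (7 and 4 at an unadjusted p under 0.05), and under KCl 13 and, with the last, 6. The ATF4 list higher under bicuculline, 15, became 10, 10 and 7 with median, spike-in and normexp and percentile scaling, and the 5 scaffold and phenylalanine genes lower there became 1 with spike-in scaling and 0 with normexp and percentile scaling (0 unadjusted). Other transporters lower under KCl ranged from 3 to 12 and other enzymes lower under KCl from 2 to 14 over the 6 scalings.

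Signs turned among genes called for KCl against control, in log2, as follows. The uncalled Mthfd2 and Slc7a11 turned too, to −0.073 and −0.053 with spike-in scaling, and Mthfd2 to −0.0064 with median scaling. With quantile scaling Phgdh gave −0.011. With median scaling Mars gave −0.0095. With spike-in scaling Phgdh gave −0.061, Kars −0.015, Mars −0.076 and Yars −0.044. With normexp and percentile scaling Phgdh gave −0.014, Slc1a5 0.17, Kars −0.013, Rars 0.010 and Yars −0.031. With normexp and quantile scaling Phgdh gave −0.017 and Yars −0.0055.

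For KCl against bicuculline, among genes called here or in that setting, these turned. With quantile scaling Psph gave −0.0070, Slc3a2 −0.055, Aars −0.010, Iars −0.13 and Yars −0.0050. With spike-in scaling Psat1 gave −0.043, Psph −0.082, Shmt2 −0.075, Aldh18a1 −0.10, Slc3a2 −0.029, Slc1a4 −0.011, Aars −0.040, Kars −0.045 and Yars −0.071. With normexp and percentile scaling Psat1 gave −0.019, Psph −0.056, Slc3a2 −0.017, Slc1a4 −0.031, Aars −0.0026, Kars −0.061 and Yars −0.073. With normexp and quantile scaling Psph gave −0.027, Asns −0.026, Slc3a2 −0.075, Aars −0.012, Iars −0.16 and Yars −0.044. Of these turned values only those of Iars passed, with adjusted p of 0.029 and 0.044.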
